A study of Mus musculus with 55 samples.

Results

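Lung expression was compared between mice fed the LRD-5001 diet (LRD) and mice fed the AIN-76A diet (AIN), over 4 arsenite treatments that were given on both diets. The members were taken by diet and treatment: all mice on either diet for 5 weeks, of whom 33 of 35 were used, out of 55 mice in the series. They were male C57BL/6 mice (C57BL/6J in the study's methods), aged 6 weeks, that had 2 weeks on their diet before treatment began. On LRD there were 4 mice with no added arsenite (control), 5 given sodium arsenite at 10 ppb in repelleted food, 4 given 10 ppb in their drinking water and 3 given 100 ppb in it. On AIN these groups held 5, 5, 4 and 3 mice. None of these mice was injected. AIN-76A is a defined, semipurified diet, and the composition of LRD-5001 is not given in the sources used here. Each mouse was hybridized to 1 Affymetrix whole-genome array, and values are log2 levels after robust multiarray averaging (RMA), so a difference of 1 is a doubling. The comparison asks how far the diet on its own set lung expression, whether it did so under each arsenite treatment, and how much changed beyond Cyp1a1 and Rbp7.

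Diet is known to act on several pathways that the lung expresses. Plant compounds in food can bind the aryl hydrocarbon (Ah) receptor, a transcription factor that pairs with Arnt and drives detoxifying enzymes, with Cyp1a1 as its classical target. Retinoids taken from food are carried inside cells by small retinol-binding proteins, of which Rbp7 is one. Feeding time also sets the phase of circadian clocks in peripheral organs, where Arntl with Clock or Npas2 drives genes that in turn repress them.

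Within an array, the log2 values had an SD of 2.30 to 2.40 in LRD mice and of 2.29 to 2.42 in AIN mice. The lowest correlation of an array with the mean of the others in its group was 0.985 on LRD and 0.967 on AIN, and limma's array weights were lowest for AIN 10 ppb water replicates E (0.201), D (0.273) and A (0.352), with all others at 0.456 or above. The arrays of 2 mice were set aside for low quality, LRD 10 ppb water replicate C with an SD of 2.23 and AIN 100 ppb water replicate B with 1.89. Lung markers were bright in both diets: the mean level of 9 alveolar type II markers lay between 11.99 and 12.53 in LRD mice and between 11.36 and 12.39 in AIN mice. In 5 mice (2 LRD, 3 AIN) a marker list of another tissue lay more than 2 log2 units above the median of the 33 mice. LRD control replicate A had the liver list at 9.85 (median of all mice 4.13) and the heart list at 11.06 (median 8.39). LRD 10 ppb food replicate B, AIN 10 ppb water replicate A and AIN control replicate E had skeletal muscle markers at 10.35, 9.53 and 8.36 (median 3.93). Fat markers stood at 10.10 in AIN 10 ppb water replicate A and at 8.39 in replicate E (median 5.47), and replicate E also had thymus markers at 9.95 (median 4.60). For the genes and counts that turn on these mice, values without them are given beside the result. In whole lung, fewer cells of a type and less RNA per cell cannot be told apart.

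At an adjusted p under 0.05 few genes passed as different between the diets, and the difference was very large at its head. A gene that did not pass is not shown to be unchanged. Cyp1a1, which oxidizes polycyclic aromatic hydrocarbons, was 39.4-fold higher in LRD mice, and Rbp7 was 16.0-fold higher. Olfm2, a secreted olfactomedin glycoprotein, was 3.67-fold higher. Hsd11b2, which inactivates corticosterone, and Rnase1, a secreted ribonuclease, were both about doubled. Called genes also included circadian clock genes, led by Dbp (difference 1.29 on the log2 scale). Lower on LRD, with smaller differences than Dbp, were interferon-stimulated genes and the monocyte markers Ccr2 and F13a1. Without the 5 mice with markers of another tissue, Ccr2, F13a1 and the called members of the interferon list no longer passed.

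Across all features, 62 of 45037 probe sets passed limma with arsenite treatment as a block (adjusted p under 0.05, hereafter called). Of these 52 were higher in LRD (0.115% of those tested) and 10 were lower (0.0222%). With each gene given by its brightest probe set, 47 of 18193 genes were called, 37 higher (0.203%) and 10 lower (0.055%). Before adjustment 1819 probe sets had a p under 0.05, fewer than the 2252 that 5% of all tests would make, and the median difference over all probe sets was 0.001. Only 8 of the 47 genes differed by at least 1 on the log2 scale, 18 differed by 0.5 to 1, and 21 by less than 0.5. The median size of the difference over the 45 called genes other than Cyp1a1 and Rbp7 was 0.51. Leaving out the 5 mice with markers of another tissue gave 34 probe sets called higher and 1 lower, and 21 of the 47 genes were still called.

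**Figure D1:**
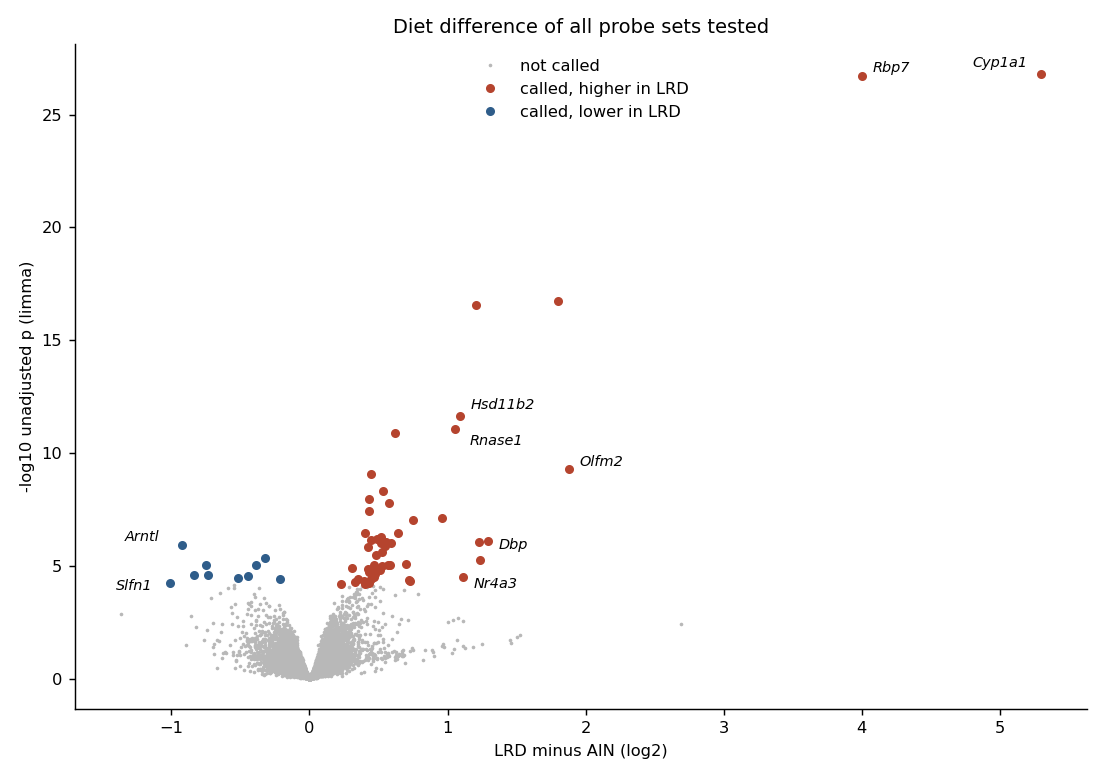
Each point is 1 of the 45037 probe sets, with its LRD minus AIN difference (log2) on the horizontal axis and its unadjusted limma p as −log10 on the vertical axis. Red points were called higher in LRD (52), blue points lower (10), and gray points were not called. Cyp1a1 at 5.30 and Rbp7 at 4.00 stand far from all other points.

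Cyp1a1 and Rbp7 separated the diets in every mouse. The lowest LRD mouse had Cyp1a1 at 8.11 and the highest AIN mouse at 4.71, and for Rbp7 these values were 7.05 and 4.97.

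For Cyp1a1, the control mice on LRD had 8.65, 9.05, 9.15 and 9.50, and those on AIN had 3.18, 3.60, 3.72, 4.38 and 4.67. With 10 ppb in food, Cyp1a1 was 8.11, 9.12, 9.26, 9.78 and 9.99 on LRD against 3.44, 3.94, 4.10, 4.21 and 4.71 on AIN. With 10 ppb in water it was 9.09, 9.13, 9.39 and 9.58 on LRD against 3.72, 3.78, 3.79 and 3.86 on AIN. The diets were thus as far apart in these groups as in the controls. With 100 ppb in water Cyp1a1 was 8.96, 9.21 and 9.46 on LRD against 3.52, 3.86 and 3.98 on AIN. The difference over all mice was 5.30 ± 0.15 (SE, n = 16 LRD and 17 AIN; 95% confidence interval 5.00 to 5.60; limma, adjusted p = 4.43e-23). Within treatments it was 5.18 in control mice, 5.17 for food, 5.51 for 10 ppb in water and 5.42 for 100 ppb in water.

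Rbp7 showed the same separation. Control mice had 7.38, 7.68, 7.71 and 7.81 on LRD against 3.32, 3.33, 3.45, 3.81 and 3.91 on AIN. With 10 ppb in food the Rbp7 levels were 7.05, 7.63, 7.84, 7.86 and 7.87 on LRD against 3.32, 3.33, 3.40, 3.46 and 3.56 on AIN. The AIN mice given 10 ppb in water spread more widely. There Rbp7 was 7.62, 7.63, 7.76 and 7.98 on LRD against 3.67, 3.69, 3.89 and 4.97 on AIN. The highest of these AIN mice, replicate A, was the one with the highest fat marker level of the 33 mice, and the part of fat in its Rbp7 level was not tested. With 100 ppb in water Rbp7 was 7.21, 7.63 and 7.96 on LRD against 3.39, 3.67 and 4.08 on AIN. The difference was 4.00 ± 0.11 (SE; interval 3.77 to 4.22; limma, adjusted p = 4.43e-23), and within treatments 4.08, 4.24, 3.69 and 3.89 in the order above. Exact two-sided permutation tests within a treatment gave, for Cyp1a1, Rbp7 and Olfm2 alike, the smallest p their group sizes allow: 0.00794 in control mice and with food, 0.0286 with 10 ppb in water and 0.1 with 100 ppb in water.

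The median AIN levels of Cyp1a1 (3.86) and Rbp7 (3.56) lay below the median of all probe sets on the AIN arrays (4.25 to 4.35). Near that lower end an array compresses differences, and no detection calls were used, so both folds are as measured and may understate the change. The arrays set aside had the same separation: Cyp1a1 was 9.18 and Rbp7 8.04 in the LRD mouse, and 2.99 and 3.62 in the AIN mouse. Without the 5 mice with markers of another tissue, the differences were 5.39 for Cyp1a1 and 4.08 for Rbp7.

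**Figure D2:**
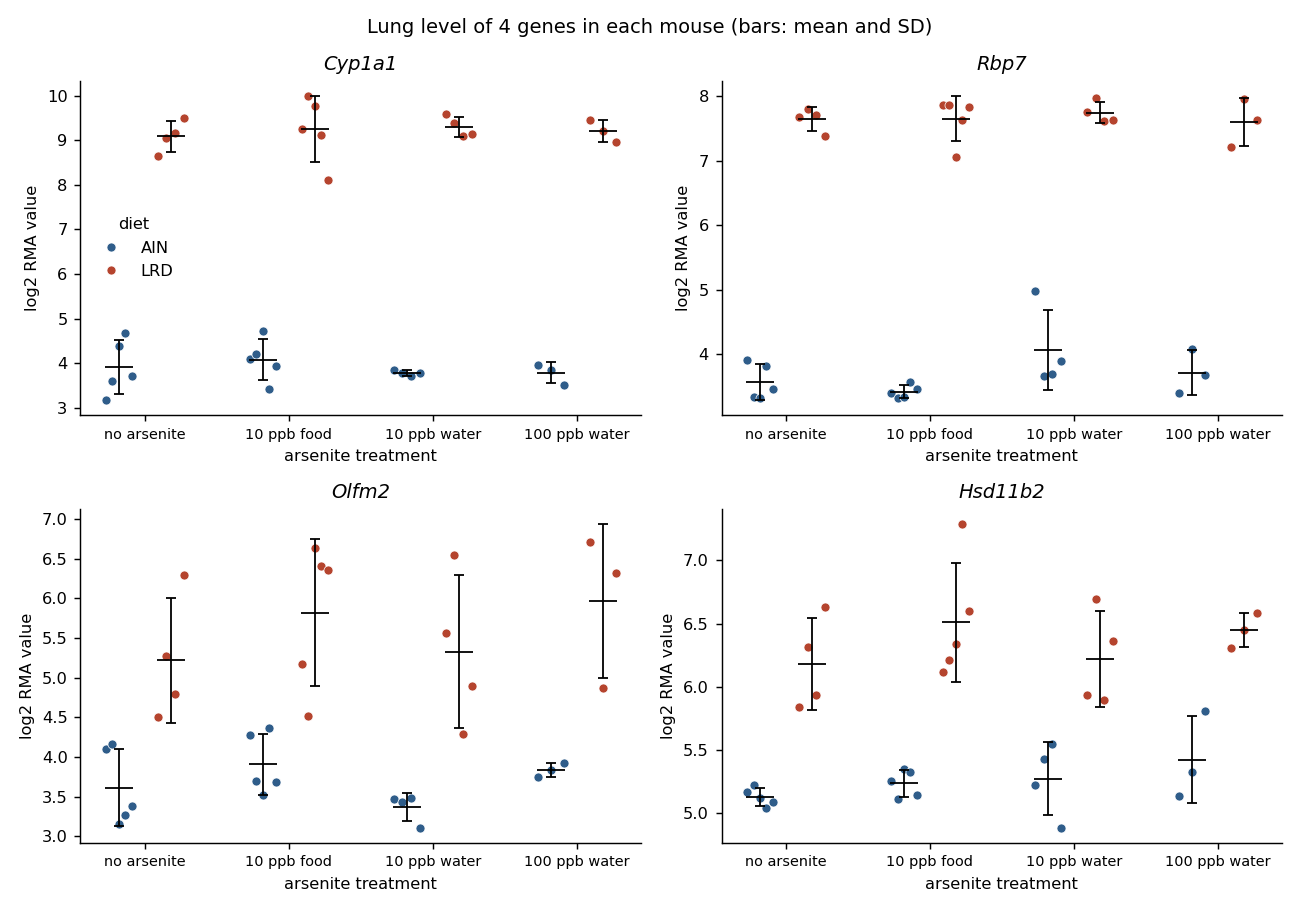
Log2 RMA level (vertical axis) of Cyp1a1, Rbp7, Olfm2 and Hsd11b2 in each of the 33 mice, by arsenite treatment (horizontal axis). Blue points are AIN mice and red points LRD mice, and bars give the mean and SD of a group of 3 to 5 mice. In all 4 genes the LRD and AIN mice of each treatment do not overlap.

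Since Cyp1a1 is the classical Ah receptor target, its promoter is shown next to that of Rbp7. Both are the 250 bases before the start of transcription in RefSeq on GRCm38.p6, 5′ to 3′, at chr9:57697363-57697612 on the plus strand for Cyp1a1 and at chr4:149454969-149455218 on the minus strand for Rbp7. Capitals mark the core motif GCGTG, searched on both strands.

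Cyp1a1: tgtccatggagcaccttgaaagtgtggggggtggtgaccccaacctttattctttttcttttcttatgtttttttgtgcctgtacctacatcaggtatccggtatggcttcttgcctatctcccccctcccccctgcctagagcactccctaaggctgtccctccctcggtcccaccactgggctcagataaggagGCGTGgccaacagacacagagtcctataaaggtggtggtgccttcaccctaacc

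Rbp7: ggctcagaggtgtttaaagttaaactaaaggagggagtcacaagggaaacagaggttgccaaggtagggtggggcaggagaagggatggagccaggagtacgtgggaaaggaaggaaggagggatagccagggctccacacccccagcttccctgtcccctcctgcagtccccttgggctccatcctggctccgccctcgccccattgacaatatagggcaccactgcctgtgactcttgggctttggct

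The motif occurs once in the Cyp1a1 window, beginning 54 bases before the start, and is not in the Rbp7 window. It was found in 5 of the 9 Ah receptor targets with a promoter in the table (55.6%: Cyp1a1, Cyp1b1, Ahrr, Tiparp and Gsta2), against 30.9% of all 27025 genes with one. Among the genes called higher it was in 14 of 26 (53.8%). A match in these letters is a description and not evidence of binding.

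The other Ah receptor targets did not move with Cyp1a1. Of 11 measured members of that list, 1 was called, Cyp1a1 itself. The median difference of the list was 0.11, against 0.001 for all genes. Nqo1, a quinone reductase, was next by unadjusted p, with a difference of 0.24 ± 0.11 (SE; interval 0.01 to 0.47; limma, adjusted p = 1). Cyp1b1, the extrahepatic relative of Cyp1a1, differed by 0.11 ± 0.10 (interval −0.09 to 0.30). Ahrr, the repressor of the receptor, differed by 0.03 ± 0.06 (interval −0.08 to 0.14). Tiparp, a member of the poly-ADP-ribose polymerase family that limits the activity of the receptor, differed by 0.12 ± 0.07 (interval −0.03 to 0.27). The intervals of Nqo1, Cyp1b1 and Tiparp do not reach a doubling, nor does that of Ahrr, whose level lay near the lower end of the arrays, where differences are compressed. Cyp1a2, which is chiefly a liver enzyme, differed by 0.52 ± 0.27 (interval −0.04 to 1.08). Its level was 7.92 in LRD control replicate A, the mouse with the liver list at 9.85, and between 2.96 and 4.16 in the other 32 mice. Of the receptor and its partners, 0 of 4 were called (unadjusted p under 0.05 in 0 as well), and Ahr itself differed by 0.05 ± 0.10.

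Rbp7 likewise stood alone among the genes of retinoid handling, with 1 of 25 measured members called and a list median of 0.03. The next members by unadjusted p were Lrat, which esterifies retinol for storage (0.48 ± 0.16), and Rarres2, a retinoid-responsive gene that encodes chemerin (0.26 ± 0.09), and both had an adjusted p above the threshold. The retinoic acid receptors Rara, Rarb and Rarg differed by −0.07, 0.25 and 0.03, none of them called.

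Other called genes separated the diets less widely. Of the called genes, 7 had no overlap between LRD and AIN mice within any of the 4 treatments. They were Cyp1a1, Rbp7, Olfm2, Hsd11b2, Rnase1, Enpp6 and Sulf1. They had been called on these same mice, which favors such a separation, and no count within treatments over all genes is given. Over all mice together, 4 genes (0.022% of genes) had no overlap: Cyp1a1, Rbp7, Hsd11b2 and Enpp6, which encodes a choline phosphodiesterase. Enpp6 and Sulf1 are named for this pattern, after their values had been seen.

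Olfm2 ran from 4.29 to 6.71 in LRD mice (median 5.42) and from 3.11 to 4.36 in AIN mice (median 3.69). Its difference was 1.88 ± 0.21 (SE, n = 16 and 17; limma, adjusted p = 3.01e-06), with 1.60, 1.91, 1.95 and 2.13 in control, food, 10 ppb water and 100 ppb water. The SD within a group was 0.79 to 0.97 in LRD mice and 0.09 to 0.48 in AIN mice. Hsd11b2 ran from 5.84 to 7.29 in LRD mice (median 6.33) and from 4.89 to 5.81 in AIN mice (median 5.22). Its difference was 1.09 ± 0.10 (adjusted p = 2.08e-08) and lay between 0.95 and 1.27 in the 4 treatments. Rnase1 ran from 4.10 to 5.40 in LRD mice (median 4.70) and from 3.27 to 4.33 in AIN mice (median 3.61), with a difference of 1.06 ± 0.10 (adjusted p = 6.51e-08). Rnase1 overlapped over all mice through 1 AIN mouse given 10 ppb in water, at 4.33. In the arrays set aside for low quality these genes did not separate the diets in this way. There Olfm2 was 3.97 on LRD and 3.86 on AIN, Hsd11b2 was 5.66 and 5.63, and Rnase1 was 4.40 and 5.71.

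Next in size were genes of several kinds. Sfrp2, a secreted modulator of Wnt signaling, was 0.96 ± 0.14 higher (adjusted p = 0.000252) and its difference was widest, 1.55, with 100 ppb in water. Ces2b, a carboxylesterase, was 0.75 ± 0.11 higher (adjusted p = 0.000285). The kinesin heavy chain Kif5c was 0.73 ± 0.15 higher. The tetraspanin Tspan4, the membrane protein Tmem88 and the transcription factor Gata5 were higher by 0.58, 0.58 and 0.55. Without the 5 mice with markers of another tissue, Kif5c (0.75, limma adjusted p = 0.0577) and Tspan4 (0.43, 0.193) were no longer called, and Tmem88 and Gata5 were. Of the 37 genes called higher, 28 belonged to none of the lists examined.

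Among lists of lipid metabolism, Fads2, the delta-6 desaturase of polyunsaturated fatty acid synthesis, was the 1 member of 18 called in fatty acid synthesis, and it rose. It ran from 7.35 to 8.32 in LRD mice (median 7.86) and from 6.89 to 7.72 in AIN mice (median 7.33), with a difference of 0.49 ± 0.08 (limma, adjusted p = 0.00153) and 0.39 to 0.79 within treatments. The median of that list was −0.10. No member was called among 26 genes of PPAR targets and fatty acid oxidation (3 at an unadjusted p under 0.05, all lower) or 20 of cholesterol synthesis and uptake (1 higher). In all, 6 of 26 lists of function held a called gene. Over all 18193 genes, 584 were higher and 331 lower at an unadjusted p under 0.05. The lists of phase II conjugation (25 measured), Nrf2 antioxidant genes (18), metallothioneins and zinc transport (11), selenoproteins (17) and arsenic methylation and transport (12) held none, with 3, 3, 2, 3 and 0 members at an unadjusted p under 0.05.

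Some diet calls came from probe sets other than the brightest of a gene or from probe sets without a symbol, and these are named after their values had been seen. A probe set without a symbol, 1442075_at, had a mean of 6.37 in LRD and 4.57 in AIN mice, a difference of 1.80 ± 0.11 (limma, adjusted p = 2.84e-13) with no overlap between the diets. A less bright probe set of Ppp2r2c, a regulatory subunit of protein phosphatase 2A (1438671_at), differed by 1.20 ± 0.07 with no overlap (adjusted p = 3.15e-13). The immediate early gene Egr3 was 1.23 ± 0.23 higher (adjusted p = 0.00812) and Atp13a3 was 0.62 ± 0.06 higher (adjusted p = 8.79e-08), both at a less bright probe set. The brightest probe sets of Ppp2r2c, Egr3 and Atp13a3 were not called. Of 36 other probe sets of the 47 called genes, 26 had the same sign as the brightest and 5 were called. Of the 10 of opposite sign, 0 were called.

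For the genes at the head of the list the differences were close in the 4 treatments, while clock genes lay near 0 with 100 ppb in water. The test for a difference between treatments, the interaction of diet and treatment in limma, called 0 probe sets (smallest adjusted p = 0.878), and 2551 (5.66%) had an unadjusted p under 0.05. Without AIN 10 ppb water replicate C it called 110, against 0 without any other single mouse and 0 without the 5 mice with markers of another tissue. The AIN 10 ppb water mice left in the fit with 110 calls were those with the lowest array weights of all. A count of 0 does not show that the effects are equal. The 47 called genes were chosen on these same mice, which favors a shared sign, and no share over all genes is given here. Of them, 44 had the same sign in all 4 treatments, 35 higher and 9 lower. The exceptions were the clock genes Hlf, Nr1d2 and Npas2, with differences of −0.08, −0.04 and 0.09 with 100 ppb in water.

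Fitted within a treatment, the diets differed at 5 probe sets in control mice (0.0111%), 7 under food arsenite (0.0155%), 25 with 10 ppb in water (0.0555%) and 6 with 100 ppb in water (0.0133%). Cyp1a1, Rbp7, the Ppp2r2c probe set 1438671_at and 1442075_at were called in every one of them. The count with 10 ppb in water depended on single mice. It rose to 2824 without AIN 10 ppb water replicate C and fell to 10 without the mice with markers of another tissue. Replicate C had an array weight of 1.73. Without it the AIN group held only replicates A, D and E, which had the lowest array weights of all (0.352, 0.273 and 0.201).

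**Figure D3:**
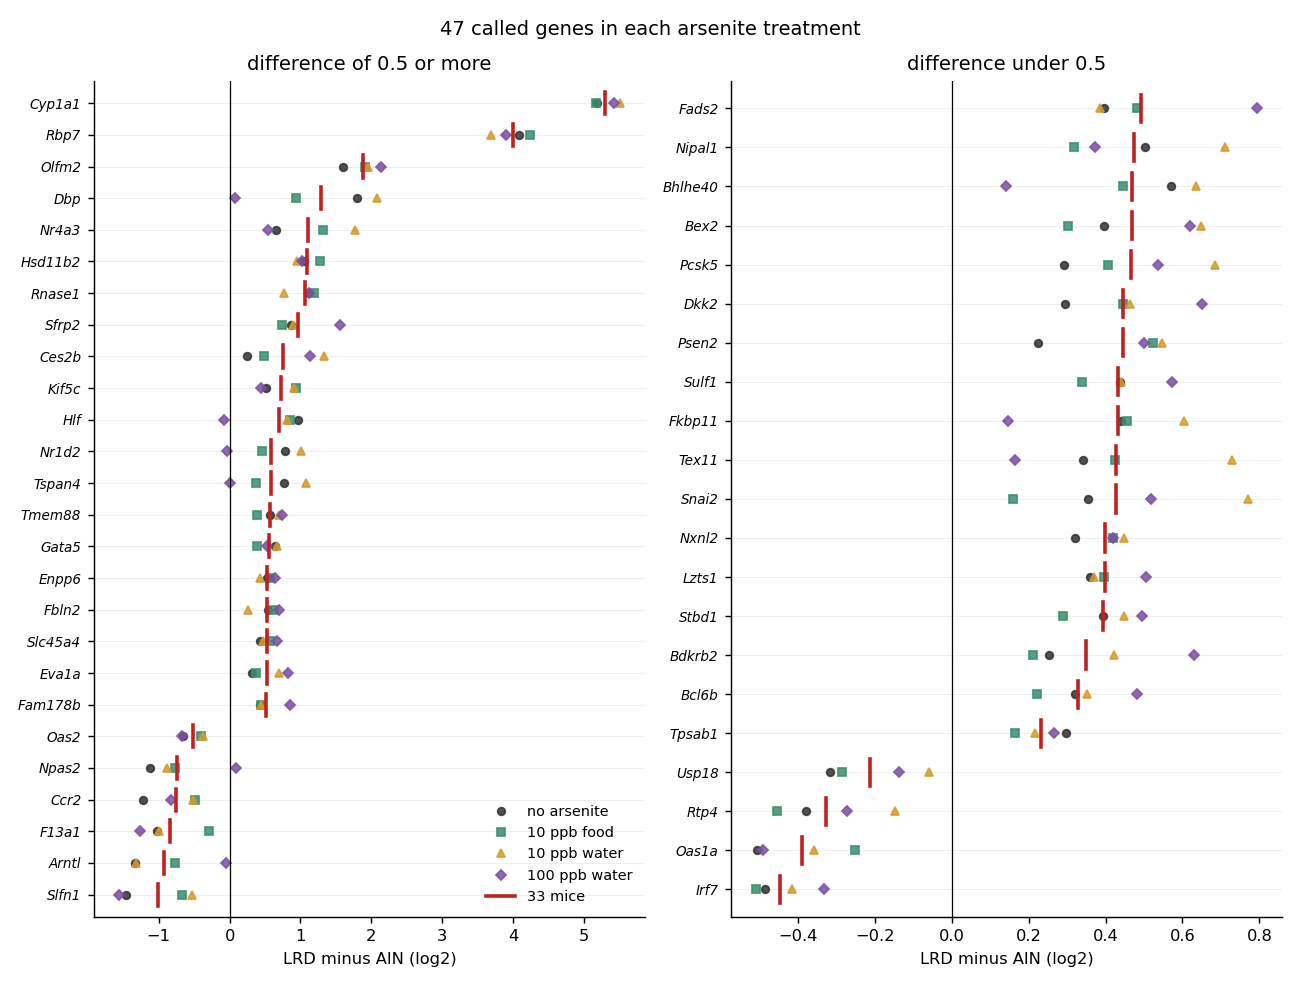
LRD minus AIN difference (log2, horizontal axis) of the 47 called genes, with 1 symbol for each arsenite treatment and a red bar for the estimate over the 33 mice. The left panel holds genes with a difference of 0.5 or more and the right panel those under 0.5. The 4 symbols of Cyp1a1, Rbp7, Olfm2 and Hsd11b2 lie close together, while those of Dbp, Hlf, Nr1d2, Tspan4, Npas2 and Arntl lie near 0 with 100 ppb in water.

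Calls made on 3 treatments were then looked up in the mice of the treatment left out, which had no part in the choice. Leaving out control mice, 24 probe sets were called in the other 3 treatments, all 24 kept their sign in control mice and 19 had an unadjusted p under 0.05 there, against 4.8% of all probe sets. Leaving out the food groups, 27 were called, 27 kept the sign and 22 passed, against 4.06%. The shares of called probe sets that passed were thus 79.2% and 81.5%. Leaving out 10 ppb in water, 35 were called, 34 kept the sign and 24 passed, against 5.52%. Leaving out 100 ppb in water, 52 were called, 39 kept the sign and 25 passed, against 1.82%, and the genes that turned included Nr1d2, Hlf, Per1, Per3, Tef, Ciart and Npas2 of the clock. Sfrp2 and Fads2 passed in the left-out 100 ppb mice, at differences of 1.55 and 0.79. Without the 5 mice with markers of another tissue, those that passed were 17 of 24 for control, 12 of 12 for food, 15 of 22 for 10 ppb in water and 17 of 30 for 100 ppb in water.

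The largest signs of a difference between treatments are given as values, since none passed the adjusted test. Rab20, a small GTPase, had the lowest interaction p (limma, 5.77e-05, adjusted p = 0.878), with differences of −0.38, 0.30, 0.70 and −0.41 in control, food, 10 ppb water and 100 ppb water. Ces2b came next (7.57e-05), with 0.25, 0.49, 1.33 and 1.13. Its LRD and AIN mice overlapped in the control and food groups and did not overlap in either water group. In control mice Ces2b was 5.59, 5.81, 5.93 and 6.43 on LRD against 5.38, 5.70, 5.71, 5.82 and 5.85 on AIN. With 10 ppb in water it was 6.58, 6.61, 6.61 and 6.73 on LRD against 5.10, 5.15, 5.22 and 5.72 on AIN. The potassium channel Kcnk2, Exd2 and the replication factor Gins2 followed.

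Circadian clock genes were the list with the most called members. Of 18 measured, 4 rose in LRD mice (Dbp, Hlf, Nr1d2 and Bhlhe40) and 2 fell (Arntl and Npas2), against 37 and 10 of all 18193 genes. Another 8 members had an unadjusted p under 0.05, making 11 higher and 3 lower, against 584 and 331 of all genes. The list median was 0.44 against 0.001 for all genes. The genes that rose are repressors and output genes of the clock, and Arntl and Npas2 belong to its activating arm. The hour of tissue collection of the groups is not given in the sources used here.

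Dbp, an output gene and PAR bZIP transcription factor, ran from 7.96 to 10.52 in LRD mice (median 9.76) and from 7.35 to 8.85 in AIN mice (median 8.19), a difference of 1.29 ± 0.21 (SE; limma, adjusted p = 0.00174). In control mice Dbp was 9.96, 10.06, 10.31 and 10.52 on LRD against 7.68, 8.17, 8.65, 8.76 and 8.79 on AIN. With 100 ppb in water it was 7.96, 8.52 and 9.51 on LRD against 8.51, 8.52 and 8.71 on AIN. The diets were apart in the first group and overlapped in the second. Arntl, the activator, ran from 5.07 to 6.94 in LRD mice (median 6.30) and from 6.49 to 7.58 in AIN mice (median 7.05), a difference of −0.92 ± 0.15 (adjusted p = 0.00207). In control mice Arntl was 5.17, 5.65, 5.82 and 5.98 on LRD against 6.67, 6.67, 7.05, 7.13 and 7.39 on AIN. With 100 ppb in water it was 6.43, 6.79 and 6.94 on LRD against 6.49, 6.87 and 6.96 on AIN. The pattern of Arntl was thus that of Dbp with the sign turned.

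Nr1d2, which encodes the repressor Rev-erb beta, was 0.59 ± 0.10 higher (limma, adjusted p = 0.00175), Hlf 0.70 ± 0.13 higher and Bhlhe40 0.47 ± 0.09 higher. Npas2, a partner of Arntl, was 0.73 ± 0.15 lower on LRD (difference −0.73). Its LRD mean of 3.63 lay below the median of all probe sets on the LRD arrays (4.26 to 4.35). A less bright probe set of Npas2 had means of 3.87 on LRD and 3.86 on AIN. Its difference was 0.005 ± 0.09, and it was not called. The period genes Per1, Per2 and Per3 differed by 0.78, 0.66 and 0.62, and none of them was called (adjusted p = 0.0953, 0.515 and 0.0976). The list median was 0.58 in control mice, 0.36 with food, 0.66 with 10 ppb in water and −0.11 with 100 ppb in water, where 4 members were higher and 14 lower. Unadjusted interaction p values were under 0.05 for Dbp (0.00356), Nr1d2 (0.000969), Arntl (0.0139), Hlf (0.0371) and Npas2 (0.0459), and adjusted ones were not. Without the 5 mice with markers of another tissue Dbp was still called (difference 1.13; limma, adjusted p = 0.032). The other 5 were not, at differences of −0.73 for Arntl (adjusted p = 0.0697), 0.49 for Nr1d2 (0.0577), 0.65 for Hlf (0.127), −0.68 for Npas2 (0.216) and 0.45 for Bhlhe40 (0.0706).

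**Figure D4:**
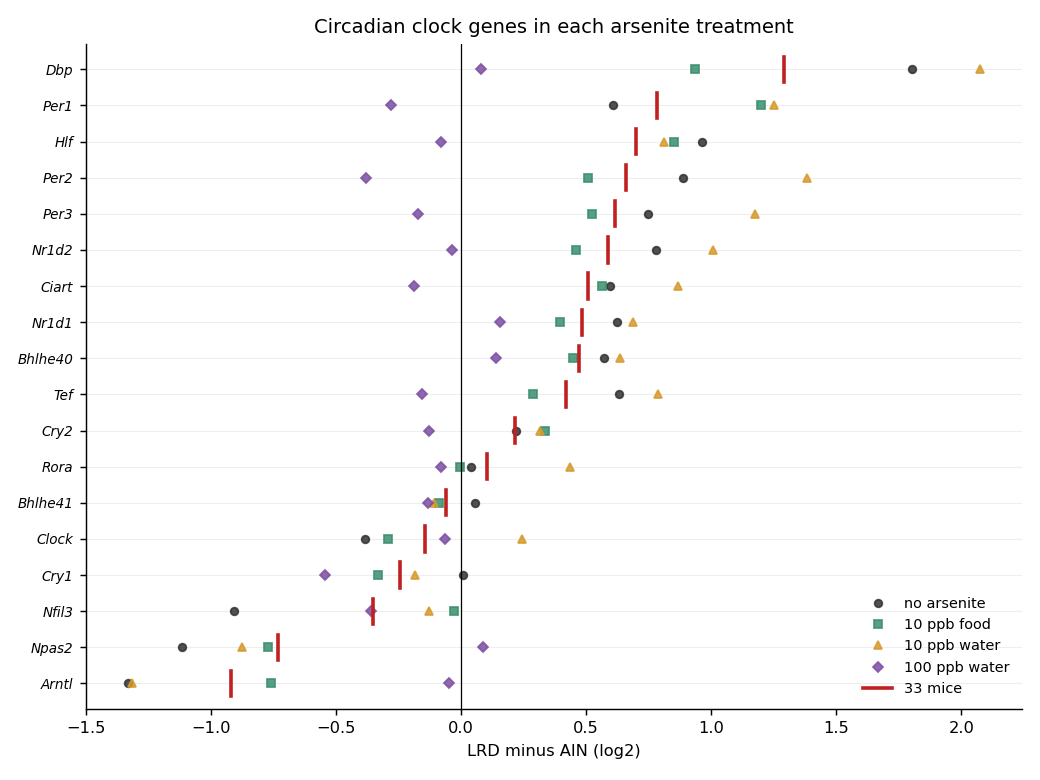
LRD minus AIN difference (log2, horizontal axis) of 18 clock genes in each arsenite treatment (symbols), with a red bar for the estimate over the 33 mice. Dbp, Hlf and Nr1d2 are high and Arntl and Npas2 low in the first 3 treatments, and the purple diamonds of 100 ppb in water gather near 0.

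Immediate early genes held 1 called member of 23, and Egr3 was called only at a less bright probe set. Of the list 20 were higher and 3 lower on LRD, against 9237 and 8956 of all genes, with a median of 0.12. By treatment the list median was −0.08 in control mice, 0.30 with food, 0.46 with 10 ppb in water and 0.01 with 100 ppb in water. Nr4a3, an orphan nuclear receptor induced within minutes by many stimuli, ran from 6.19 to 8.94 in LRD mice (median 7.53) and from 5.00 to 7.57 in AIN mice (median 6.44), with a difference of 1.11 ± 0.23 (limma, adjusted p = 0.0297). The groups overlapped in 3 of the 4 treatments. Without the mice with markers of another tissue, the Nr4a3 difference was 1.07 (limma, adjusted p = 0.193). Less bright probe sets of Nr4a3 were not called. They differed by 0.10 ± 0.12 (means 5.14 on LRD and 5.04 on AIN) and −0.01 ± 0.06 (3.18 and 3.19).

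Of the 10 genes called lower on LRD, interferon induces Oas2, Irf7, Oas1a, Usp18 and Rtp4. The others were the monocyte markers Ccr2 and F13a1, the clock genes Arntl and Npas2, and Slfn1. Interferon-stimulated genes encode antiviral proteins that cells make on exposure to interferon. Of 23 measured, 4 fell (Oas2, Irf7, Oas1a and Usp18), against 10 of all 18193 genes. At an unadjusted p under 0.05, 10 were lower and 0 were higher, against 331 and 584 of all genes. Of the list 19 lay below 0, against 8956 of all genes, and its median was −0.17. By treatment the list median was −0.18 in control mice, −0.25 with food, −0.06 with 10 ppb in water and −0.11 with 100 ppb in water. The differences were small beside those of Cyp1a1 and Rbp7.

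Irf7, the transcription factor that amplifies the interferon response, ran from 6.11 to 7.16 in LRD mice (median 6.72) and from 6.76 to 7.71 in AIN mice (median 7.14), a difference of −0.45 ± 0.09 (SE; limma, adjusted p = 0.027). Its groups overlapped in every treatment. The 2′-5′ oligoadenylate synthetases Oas1a and Oas2, which activate RNA decay, differed by −0.39 ± 0.07 (adjusted p = 0.0111) and −0.51 ± 0.11 (adjusted p = 0.031). Usp18, a protease that removes the modifier ISG15 from proteins, differed by −0.21 ± 0.04 (adjusted p = 0.0331). Rtp4, a gene outside that list that interferon also induces, fell by 0.33 on the log2 scale (difference −0.33 ± 0.06, adjusted p = 0.00661). Ifit1, at −0.36 ± 0.08, was just short of the threshold (adjusted p = 0.0626). Interferon-gamma-inducible members such as Gbp2 (0.08), Igtp (0.03) and Cxcl10 (−0.05) were not called. Without the 5 mice with markers of another tissue, Rtp4 was still called (difference −0.37, adjusted p = 0.00179). The others were not, at differences of −0.53 for Oas2 (adjusted p = 0.0577), −0.22 for Usp18 (0.0849), −0.34 for Oas1a (0.127) and −0.36 for Irf7 (0.262).

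The promoter of Oas1a is shown as one that holds the interferon-response motif TTTC, any 2 bases, TTTC, at chr5:120907526-120907775 on the minus strand (RefSeq, GRCm38.p6, 250 bases before the start). Capitals mark both overlapping matches, which lie on the opposite strand to the letters printed.

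Oas1a: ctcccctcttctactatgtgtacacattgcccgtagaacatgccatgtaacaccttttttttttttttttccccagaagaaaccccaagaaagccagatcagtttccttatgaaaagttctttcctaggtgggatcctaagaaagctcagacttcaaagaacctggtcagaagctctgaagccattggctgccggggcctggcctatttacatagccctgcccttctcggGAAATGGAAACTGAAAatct

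The motif, searched on both strands, was in 9 of the 18 interferon-stimulated genes with a promoter in the table (50%) against 3.46% of all genes, and Oas1a was the 1 gene of 7 called lower that held it. For the clock list the motif CACGTG was in 5 of 16 (31.2%: Per1, Cry1, Tef, Bhlhe41 and Ciart) against 6.86% of all genes, and in none of the called clock genes with a promoter in the table. Both motifs were chosen after the values had been seen.

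Of the monocyte markers, Ccr2 and F13a1 fell on LRD, and no neutrophil marker was called. Ccr2, the receptor that brings monocytes out of the bone marrow, ran from 6.21 to 7.35 in LRD mice (median 6.64) and from 6.85 to 8.58 in AIN mice (median 7.21), a difference of −0.75 ± 0.14 (SE; limma, adjusted p = 0.0111). F13a1, coagulation factor XIII A, which monocytes and macrophages make, differed by −0.84 ± 0.17 (adjusted p = 0.0257). All 7 measured genes of a list of classical monocytes, drawn up after the values had been seen, lay below 0 (median −0.44). Of these 2 were called, Ccr2 and F13a1. A list made in that way describes the values and does not test them. All 12 neutrophil markers also lay below 0 (median −0.53), 6 at an unadjusted p under 0.05 and 0 called. So did all 11 T cell, 9 thymus and 8 platelet markers (medians −0.17, −0.22 and −0.19), with 0 at an unadjusted p under 0.05. A shared sign within a list was thus not particular to neutrophils and monocytes. Over all 18193 genes, 8956 lay below 0 and 331 were lower at an unadjusted p under 0.05. By treatment the neutrophil median was −0.92 in control mice, −0.13 with food, −0.02 with 10 ppb in water and −1.33 with 100 ppb in water. The monocyte median was −0.61, −0.26, 0.02 and −0.82 in the same order. With 10 ppb in water 6 of 12 neutrophil and 4 of 7 monocyte markers were higher on LRD. Of 13 macrophage markers, 1 was called, Ccr2, and of the 22 lists of cell types drawn up with the lists of function this was the 1 with a called member.

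Slfn1, a member of the schlafen family of immune cells, had the largest fall among the called genes. It was 4.65, 5.23, 5.57 and 5.78 in LRD control mice against 5.61, 6.29, 6.32, 7.43 and 8.17 in AIN control mice, and 5.73, 5.91 and 6.29 on LRD against 6.54, 7.98 and 8.09 on AIN with 100 ppb in water. Its difference over all mice was −1.01 ± 0.22 (limma, adjusted p = 0.0423). The highest 3 Slfn1 values came from AIN control replicate C and AIN 100 ppb water replicates C and D. Those 3 mice also had the highest mean levels of the neutrophil list, at 9.28, 10.46 and 8.56, where the list ran from 6.10 to 8.02 in LRD mice and from 6.48 to 10.46 in AIN mice. The monocyte list ran from 6.84 to 7.58 in LRD mice and from 7.01 to 8.55 in AIN mice. The part of these cells in the falls of Slfn1, Ccr2 and F13a1 was not tested. Without the mice with markers of another tissue the differences were −0.84 for Slfn1 (adjusted p = 0.333), −0.67 for Ccr2 (0.0577) and −0.64 for F13a1 (0.355).

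**Figure D5:**
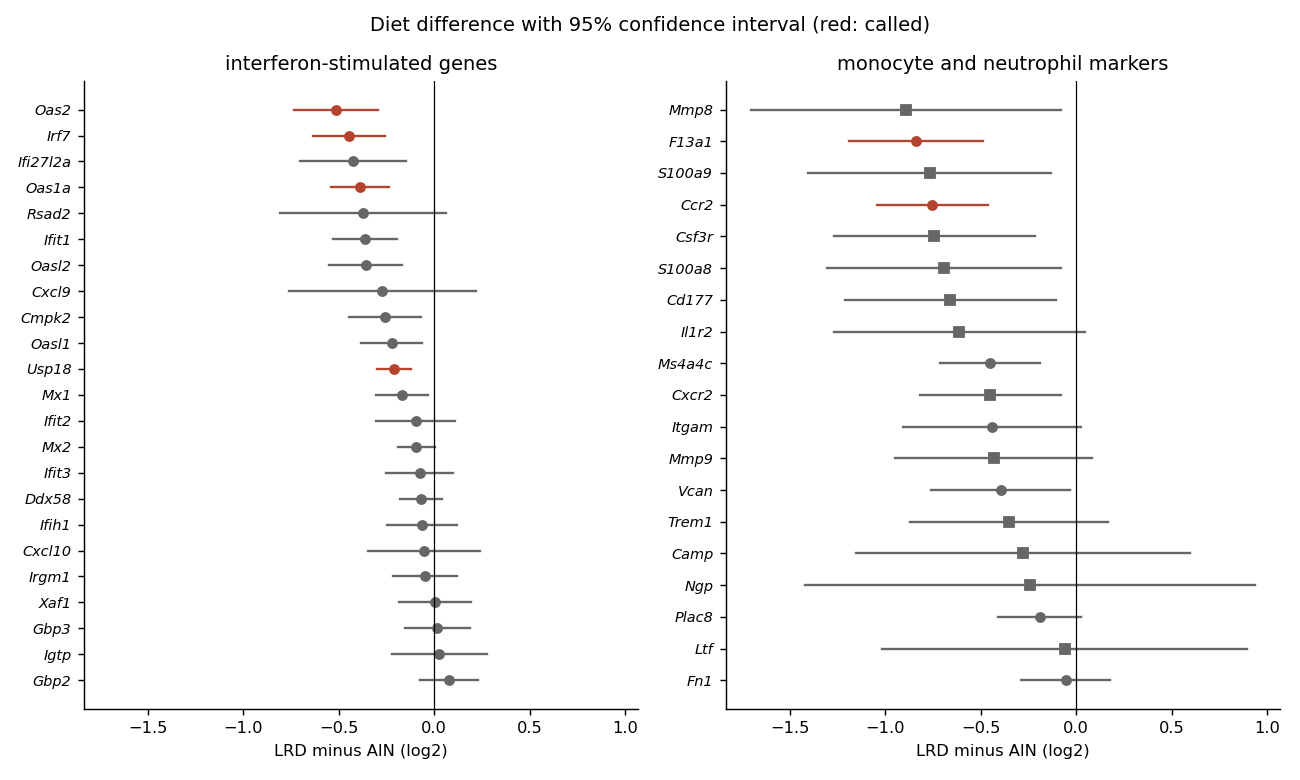
LRD minus AIN difference (log2, horizontal axis) with its 95% confidence interval for 23 interferon-stimulated genes (left) and for 7 monocyte markers (circles) and 12 neutrophil markers (squares) on the right. Red marks the called genes, 4 on the left (Oas2, Irf7, Oas1a, Usp18) and 2 on the right (F13a1, Ccr2). All points on the right and 19 on the left lie below 0.

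Markers of lung cells themselves were not called. Of the lists of alveolar type II cells (9 measured), alveolar type I cells (7), airway secretory cells (11), airway ciliated cells (11), endothelial cells (14) and fibroblasts and smooth muscle (12), 0 members were called, with 1, 0, 0, 0, 1 and 0 at an unadjusted p under 0.05 and medians between −0.02 and 0.11. In liver markers the median was 0.61 with 0 of 7 called. It was 1.98 in control mice, where LRD control replicate A had albumin (Alb) at 13.35 and replicate E at 8.91. It was 0.59 with food, where LRD replicate D had Alb at 8.96, −0.14 with 10 ppb in water and −0.40 with 100 ppb in water. Gata5 was the 1 called gene of 11 in a list of mesothelium drawn up afterward, whose median was 0.09.

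The arrays fall into 5 file groups of 11 by the names of their raw files, each holding both diets (3 and 4, 3 and 4, 4 and 4, 4 and 2, and 2 and 3 of the LRD and AIN mice fitted). Within file groups Cyp1a1 differed by 5.00 to 5.90 and Rbp7 by 3.72 to 4.45. Of the 47 called genes, 46 had the same sign in all 5, which their choice on these same mice favors. The exception was Fam178b, from −0.09 to 0.85. With file group as a block, 42 of the 47 genes were called again, and Lzts1, Bdkrb2, Tpsab1, Oas2 and Slfn1 were not.

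By the range of settings tried, 16 of the 47 genes kept their call in all 12 alternatives over the full set of treatments in which they were tested and in each fit with 1 mouse left out. They were Cyp1a1, Rbp7, Olfm2, Dbp, Hsd11b2, Rnase1, Sfrp2, Ces2b, Tmem88, Gata5, Enpp6, Fbln2, Slc45a4, Eva1a, Psen2 and Nxnl2, all of them higher on LRD. None of the 10 genes that fell is among them. Rnase1, Enpp6 and Nxnl2 were removed by the setting that filters out dim probe sets, so they were not tested in it. Their AIN means were 3.61, 3.84 and 3.56. The requirement of a change of at least 1 is not counted among these settings, and of the 16 only Cyp1a1, Rbp7, Olfm2, Dbp, Hsd11b2 and Rnase1 reached that size. Settings with the mice of fewer treatments, which hold fewer mice, are not counted either. Of the 16, Dbp, Gata5 and Fbln2 lost their call in exposed mice alone, and Fbln2 without the mice given 100 ppb. In control mice alone only Cyp1a1 and Rbp7 kept it.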

How the data were processed

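Lung RNA was measured on 1 Affymetrix array per mouse. The authors made the deposited values from the raw arrays with RMA and gave them on the log2 scale; which arrays were normalized together is not given in the sources used here. Raw arrays were not used. Of 45101 probe sets, 64 controls were left out. Of the rest 34945 carry 1 gene symbol, 932 several and 9160 none, and only the first were named. Each gene is given by its probe set with the highest mean.

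Diets were compared with limma 3.58.1 (R 4.3.3; diet plus treatment in 1 linear model, moderated by empirical Bayes, with Benjamini-Hochberg adjustment across all probe sets). Tests are two-sided. Mice were grouped by their labels, and n of 3 to 5 a group limits the precision. The fit was tested on simulated data. The text names the 15 called genes that rose most, all that fell, up to 5 members of each list described and the 5 lowest interaction p values, besides those said to be chosen afterward. The mice, the 26 function and 22 cell type lists and the tests were chosen with earlier results of these data known. Rank products were computed in Python with 100 orderings.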

Additional observations from a re-analysis of the deposited data

Results flagged for a closer look

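In groups of 4 or 5 mice, 8 of 150 combinations of gene and group (5.33%) held a mouse far from its group by Dixon's test, which chance alone gives in about 1 of 20. Arntl was 5.50 in LRD 10 ppb food replicate B, with the others at 6.45 to 6.66, and Tspan4 was 10.09 in the same mouse, with the others at 9.12 to 9.35. This mouse also had skeletal muscle markers at 10.35. Rbp7 was 7.05 in LRD 10 ppb food replicate D, against 7.63 to 7.87. Tmem88 was 7.91 (others 8.11 to 8.14) and Tspan4 9.50 (others 9.89 to 9.96) in LRD 10 ppb water replicate E. On AIN, Hlf was 5.97 in 10 ppb food replicate E (others 5.40 to 5.55), Kif5c 3.88 in 10 ppb food replicate C (others 3.43 to 3.46) and Olfm2 3.11 in 10 ppb water replicate E (others 3.43 to 3.49).

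The 20 injected mice of the series were all on AIN and took no part in the comparison. In 19 of them, 1 array of low quality being set aside, Cyp1a1 ran from 3.34 to 8.64. The highest value, 8.64, belonged to replicate E of the mice injected with dexamethasone and arsenite and lay within the range of LRD mice (8.11 to 9.99). Rbp7 in that mouse was 2.96, the lowest of the injected mice, which ran up to 4.40. Hsd11b2 was 7.09 in replicate A and 6.13 in replicate E of that group, above all AIN mice of the diet comparison (4.89 to 5.81). Enpp6 was 4.19 in replicate A of the arsenite injection, against up to 4.11 in AIN mice on chronic treatment.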

How the results depend on the processing

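All 47 genes kept their sign under every setting that tested them, and Cyp1a1 (5.18 to 5.39) and Rbp7 (3.96 to 4.12) kept their call in each. Counts of probe sets called higher (52) or lower (10) moved more. Lower calls were 6 with replicate letter as a block, 3 with all 35 mice and 31 with array weights. The letters do not pair mice: same-letter deviations correlated at a median of −0.156 over 14 pairs, against 0.302 for 15 pairs of the same file group. Requiring a change of at least 1 left 11 higher and 1 lower. The rank product listed 498 higher and 466 lower, 47 of them in both directions. Chosen after seeing the data, control mice alone gave 2 higher and 0 lower (limma; 1863 at an unadjusted p under 0.05), exposed mice alone 24 and 0, and leaving out the mice with markers of another tissue 34 and 1. Within-treatment counts in control mice (5) were 9 with file group, 8 with a filter on dim probe sets and 2 in separate fits; with 10 ppb in water (25) they were 39, 41 and 3, and 10 without the mice with markers of another tissue; with 100 ppb in water (6) separate fits gave 3. The causes were not tested, except that separate fits and subsets hold fewer mice.

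Leaving out 1 mouse at a time gave 42 to 56 higher and 5 to 15 lower calls. Within treatments it gave 4 to 6 in control mice, 7 to 8 with food, 8 to 2824 with 10 ppb in water and 5 to 18 with 100 ppb in water, the upper values without AIN 10 ppb water replicate C and AIN 100 ppb water replicate A. Interaction calls were 0 except for 110 without AIN 10 ppb water replicate C, a fit that leaves that group with the mice of lowest array weight. With dim probe sets filtered out, 15, 21, 23 and 21 of the calls of 3 treatments passed in the mice of the other treatment, in the order of the report; without the mice with markers of another tissue these were 17, 12, 15 and 17 of fewer calls. No background signals were used, so levels near the lower end of the arrays are not told from no signal.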
